A study of Mus musculus with 20 samples.

Results

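The extracellular matrix and remodelling genes described here are 34 genes that encode the scaffold around the cells of fat and the proteins that cut, cross-link or signal from it: 13 collagen chains, fibronectin, fibrillin and elastin, 3 small proteoglycans, 5 matricellular proteins, the growth factor Tgfb1, 3 cross-linking enzymes, 2 proteases, 3 protease inhibitors and reelin. A gene was taken from the probe sets that carry its symbol and no other, and where it had several, from the probe set with the highest mean log2 intensity over all arrays. Of the 34 genes, 33 had such a probe set, among 18193 genes of 1 symbol on the array, and 32 passed the filter on low intensity, among 10601 genes tested. Fbn1 had no probe set of this kind and is not analysed here. Timp1 was above an intensity of 100 on 4 of 20 arrays, where 5 were needed, and was not tested.

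RNA of visceral fat of C57BL/6J mice was measured on Affymetrix whole-genome arrays, 1 mouse to an array, in 4 groups of 5. Control non pregnant and control pregnant mice were on a diet labelled low fat with 10% fat (Research diets 12328). HF non pregnant and HF pregnant mice were on a diet labelled high fat with 58% fat (Research diets 12331). The labels give the age E18.5 for all mice, the non pregnant ones too, where it can only describe gestation. All mice were females of 1 strain, and per the methods came from different litters and mothers. The labels say visceral fat, and the paper names the depot of the arrays as mesenteric. The comparisons ask whether HF feeding, late pregnancy or both together alter the matrix genes of this depot. A value in the text is the deposited intensity, and a difference is on the log2 scale, where 1 is a doubling. Every piece of tissue is a mixture, so fewer cells of a type and less RNA per cell cannot be told apart.

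In fat, every adipocyte sits in a basement membrane of type IV collagen and laminin, and strands of fibrillar collagen run between the lobules. Fibroblasts and adipose progenitors make much of the fibrillar collagen, and adipocytes contribute basement membrane and collagen VI. Growth of the depot needs this mesh to be loosened and relaid: membrane-bound and secreted metalloproteinases cut it, TIMP proteins restrain them, lysyl oxidases and transglutaminase stiffen it, and matricellular proteins such as the thrombospondins tune signals between matrix and cells without being part of the scaffold.

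Array medians lay between 60.7 and 64.7. All 8 adipocyte markers passed the filter, from Adipoq, which encodes adiponectin, between 14336 and 24630, to Lep, which encodes leptin, between 163 and 3877. Control non pregnant replicate 4 and control pregnant replicate 2 stood apart by digestive enzyme genes of the pancreas, with Cela2a reaching 9871 against a median of 29.0 over the 20 arrays. B cell and T cell markers varied widely within each group, by a mean log2 deviation of -2.56 to 1.55 for the 6 B cell genes among control pregnant mice; per the methods, visible lymph nodes had been removed. Their part in the results was not tested beyond the values given beside each result.

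No matrix gene passed the adjusted threshold of 0.05 in any of the 7 comparisons of the limma fit, in which p-values were adjusted over all 19802 kept probe sets. HF pregnant against control pregnant mice gave 0 of 32 matrix genes, beside 0.245% of all genes tested, and 8 of 32 at an unadjusted p under 0.05 beside 13.5% of all genes. HF pregnant against HF non pregnant mice gave 0 of 32, beside 0.0377%, and again 8 of 32 at an unadjusted p under 0.05, beside 4.31%. HF non pregnant against control non pregnant mice gave 0 of 32, beside 0% of all genes, and 1 of 32 at an unadjusted p under 0.05, beside 17.2%. Control pregnant against control non pregnant mice likewise gave 0 of 32 beside 0%, and 1 of 32 unadjusted beside 2.85%.

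The contrasts that use all 20 mice had the same outcome. The interaction of diet with pregnancy gave 0 of 32 beside 0% of all genes, and 6 of 32 at an unadjusted p under 0.05 beside 3.13%. Diet averaged over pregnancy status gave 0 of 32 beside 1.34%, and 5 of 32 unadjusted beside 29.1%. Pregnancy averaged over diet gave 0 of 32 beside 0.00943%, and 6 of 32 unadjusted beside 4.24%. The count of 0 depended on the fit: with arrays weighted by their quality, limma called 2 matrix genes in HF pregnant against control pregnant mice, 9 for diet in non pregnant mice and 8 for pregnancy on the HF diet.

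The median of the 32 log2 differences was 0.11 in HF pregnant against control pregnant mice, where 22 of 32 were positive beside 59.1% of all genes, and the median of all genes was 0.05. It was -0.03 for HF against control in non pregnant mice, with 15 of 32 positive beside 48.4%. For pregnancy it was -0.01 on the HF diet, with 15 of 32 positive beside 50.02%, and -0.15 on the control diet, with 9 of 32 positive beside 49.5%. With arrays weighted by quality the medians were -0.05, 0.32, -0.26 and 0.11 in the same order, a fit in which HF non pregnant replicate 3 had a weight of 11.3 and the other 19 arrays weights from 0.233 to 4.45. The weight of 4.45 was that of control non pregnant replicate 4, an array high in pancreatic genes. With the fibroblast and progenitor markers as a covariate the first median was -0.17. Both comparisons of HF pregnant mice share that group, and both comparisons of control pregnant mice share theirs. The same holds for control non pregnant and for HF non pregnant mice.

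The 2 comparisons that involve HF pregnant mice held matrix genes whose 5 mice lay wholly on one side of the other 5. HF pregnant and control pregnant mice did not overlap for 7 of 32 matrix genes, 6 higher (Thbs2, Tgm2, Mmp2, Mmp14, Timp2 and Reln) and 1 lower (Col15a1), beside 3.85% of all genes. HF pregnant and HF non pregnant mice did not overlap for 5 of 32, with Thbs2, Tgm2, Mmp14 and Reln higher and Col15a1 lower, beside 1.4%. Diet without pregnancy gave 0 of 32 beside 2.11%, and pregnancy on the control diet 0 of 32 beside 0.198%.

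**Figure D1:**
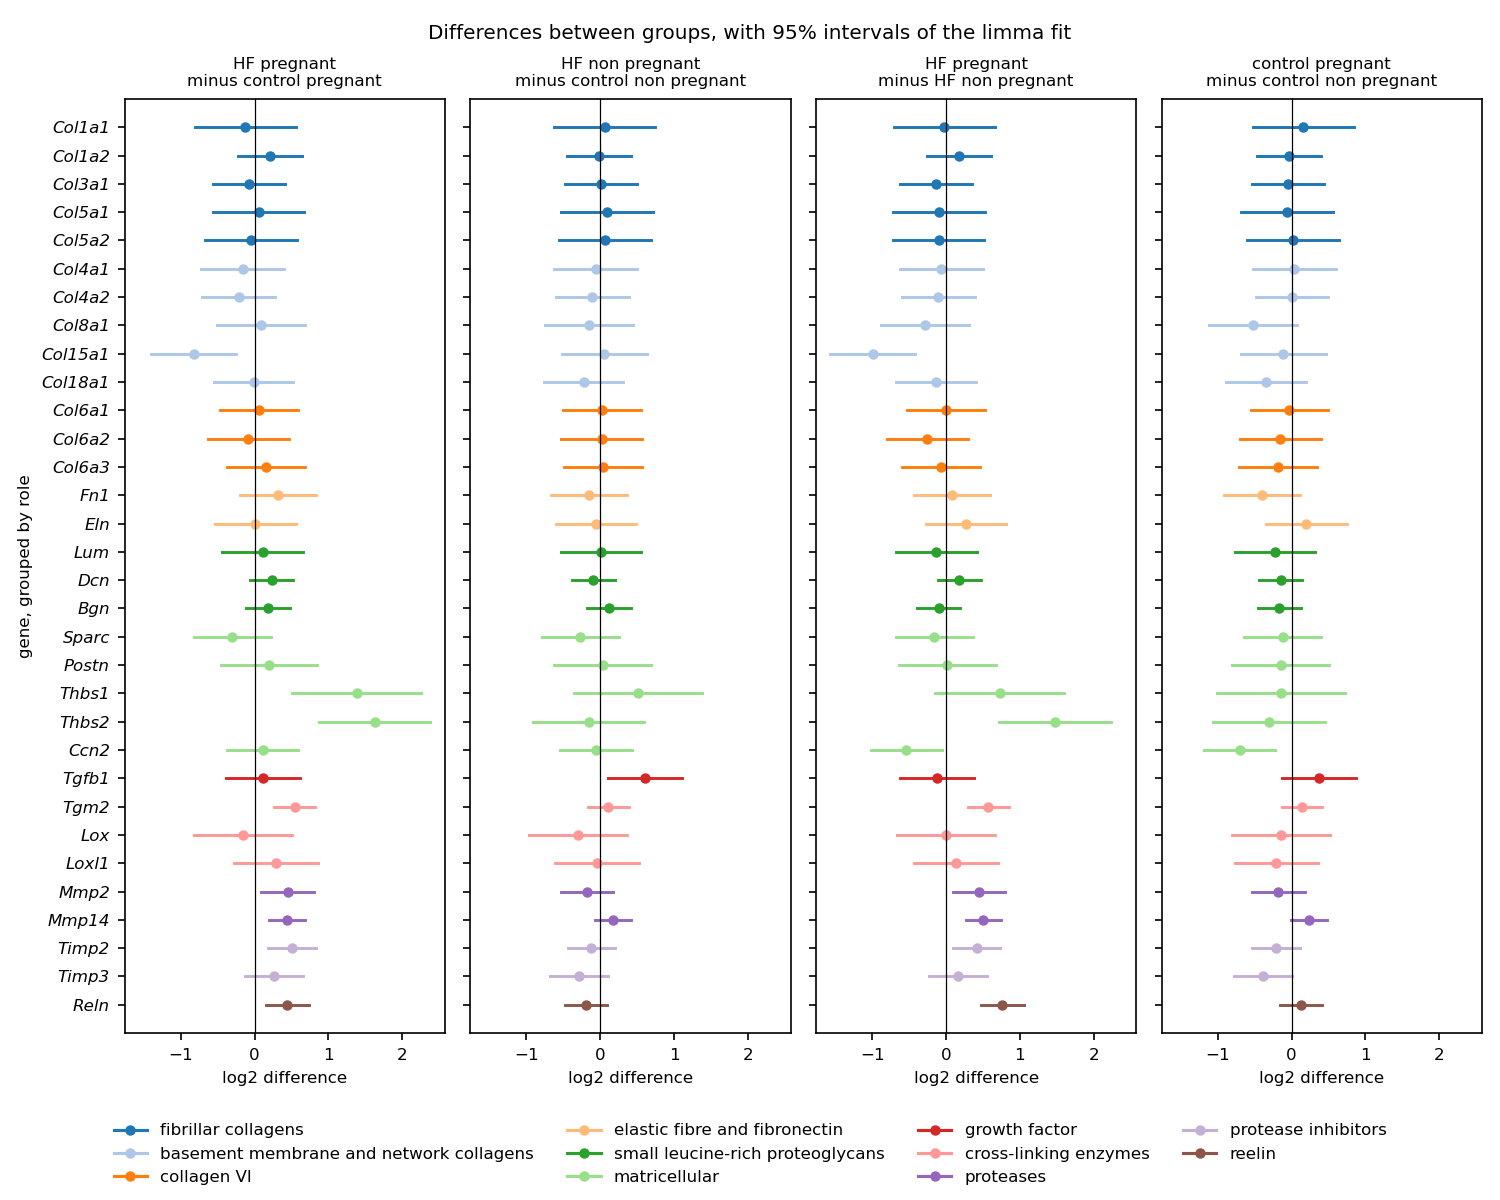
Log2 difference (x axis) of 32 matrix genes (y axis, in order of role) in the 4 comparisons of groups, 5 mice a group. Points are limma estimates and lines their 95% intervals, coloured by role. Of the collagens, Col15a1 lies farthest from 0, at -0.82 and -0.99 in the comparisons with HF pregnant mice. Thbs2 lies farthest from 0 of the 32, at 1.63 and 1.48 in the same comparisons.

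The collagens of the fibrils differed little between groups. Col1a1 and Col1a2 encode the chains of type I collagen, Col3a1 that of type III, and Col5a1 and Col5a2 chains of type V, which sets fibril width. Group means of Col3a1, the brightest probe set of these, lay between 13.18 and 13.31 (log2), and those of Col1a1, the dimmest, between 8.88 and 9.03. None of the 5 passed in any comparison, and their differences ran from -0.13 to 0.20 in HF pregnant against control pregnant mice. Col1a1 was 412, 803, 529, 362 and 360.1 in control non pregnant mice and 542, 875, 574, 326 and 316 in HF non pregnant mice. It was 631, 266, 633, 587 and 633 in control pregnant mice and 616, 581, 309, 673 and 344 in HF pregnant mice. All 4 groups overlapped, and the spread within a group was wider than the gaps between group means. The limma difference of Col1a1 was -0.13 ± 0.33 (SE, n = 5 and 5, adjusted p = 0.848) for HF against control in pregnancy, with a 95% interval of -0.81 to 0.56.

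Collagen VI, a beaded filament that adipocytes make in quantity, was as level. Col6a1, Col6a2 and Col6a3 encode its chains, and their differences lay between -0.25 and 0.16 over the 4 comparisons of groups. The largest of these in size was Col6a2 between HF pregnant mice and HF non pregnant mice, at -0.25 ± 0.26 (SE, adjusted p = 1 by limma). Group means lay between 10.39 and 10.45 (log2) for Col6a1 and between 10.34 and 10.57 for Col6a3.

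Of the collagens of basement membranes and networks, Col15a1 was the one set apart in HF pregnant mice. It encodes type XV collagen, which sits at the border of basement membranes and the fibrils around them. Col15a1 was 166, 244, 132, 239.5 and 169 in HF pregnant mice. It was 502, 247, 463, 249 and 263 in control pregnant mice and 362, 679.5, 409, 259 and 255 in HF non pregnant mice. In control non pregnant mice it was 292, 489, 306, 337 and 377. Every HF pregnant mouse was below every mouse of the other groups, though its highest value, 243.6, lay just under the lowest control pregnant value, 246.7. The difference was -0.82 ± 0.27 against control pregnant mice (SE, 0.564-fold, adjusted p = 0.235 by limma) and -0.99 ± 0.27 against HF non pregnant mice (0.503-fold, adjusted p = 0.475), and neither passed the threshold.

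Col4a1 and Col4a2, the main chains of type IV collagen, did not follow Col15a1. Col4a1 ranged from 2217 to 6138 over the 20 mice, with differences of -0.16 ± 0.27 and -0.06 ± 0.27 in the same comparisons. Col18a1, whose product carries endostatin, was at -0.01 ± 0.26 and -0.14 ± 0.26. Col8a1, a network-forming collagen of vessels, was dim, with group medians between 112 and 145, and was at -0.52 ± 0.28 in control pregnant against control non pregnant mice (adjusted p = 0.963 by limma).

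Fibronectin, elastin and the small proteoglycans did not pass in any comparison. Fn1, which encodes fibronectin, the adhesive glycoprotein that cells bind through integrins, was at 0.32 ± 0.25 in HF pregnant against control pregnant mice and at -0.40 ± 0.25 in control pregnant against control non pregnant mice. Eln, the core of elastic fibres, lay between -0.06 and 0.27 over the 4 comparisons. Lum, Dcn and Bgn encode lumican, decorin and biglycan, which coat collagen fibrils. Group means of Dcn lay between 13.73 and 13.97 (log2) and those of Bgn between 11.04 and 11.32. Lum, Dcn and Bgn were at 0.11, 0.23 and 0.18 in HF pregnant against control pregnant mice.

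The matricellular genes held the greatest differences in size among the 32. Thbs2 encodes thrombospondin 2, which binds metalloproteinases and restrains the growth of vessels. It was 793, 1671, 832, 1051 and 1888 in HF pregnant mice. It was 613, 173, 450.2, 302 and 539 in control pregnant mice and 357, 631, 607, 369 and 259.6 in HF non pregnant mice. In control non pregnant mice it was 675, 724, 368, 364 and 346. The 5 HF pregnant mice were above the other 15, and control pregnant replicate 2 was the lowest of all.

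Thbs2 was 1.63 ± 0.36 higher in HF pregnant mice than in control pregnant mice (SE, n = 5 and 5, 3.09-fold, adjusted p = 0.0750 by limma) and 1.48 ± 0.36 higher than in HF non pregnant mice (2.78-fold, adjusted p = 0.342). Diet without pregnancy gave -0.16 ± 0.36 and pregnancy on the control diet -0.31 ± 0.36. The interaction of diet with pregnancy was 1.79 ± 0.51, with an adjusted p of 0.933 by limma, so the responses were not shown to differ. With the mean of the B cell and T cell markers as a covariate, the first difference was 1.82, with an adjusted p of 0.000189 by limma. Without the pair of arrays high in pancreatic genes it was 1.34, with an adjusted p of 0.102. A pair of other probe sets of Thbs2 gave 1.19 and 0.997 against control pregnant mice and 0.53 and 0.43 against HF non pregnant mice, and 0.45 and 0.34 for diet in non pregnant mice, where the brightest gave -0.16.

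Thbs1 encodes thrombospondin 1, which activates latent TGF-beta. It was 922, 2145, 861, 1716 and 1221 in HF pregnant mice and 765, 1592, 1276, 380.4 and 485 in HF non pregnant mice. It was 407, 396, 434, 431 and 978 in control pregnant mice and 814, 1059, 457, 386 and 321 in control non pregnant mice. HF pregnant mice overlapped each of the other groups, through control pregnant replicate 5 in the case of the control pregnant group. The difference was 1.38 ± 0.42 against control pregnant mice (SE, adjusted p = 0.192 by limma) and 0.95 ± 0.29 for diet averaged over pregnancy status (adjusted p = 0.0844).

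**Figure D2:**
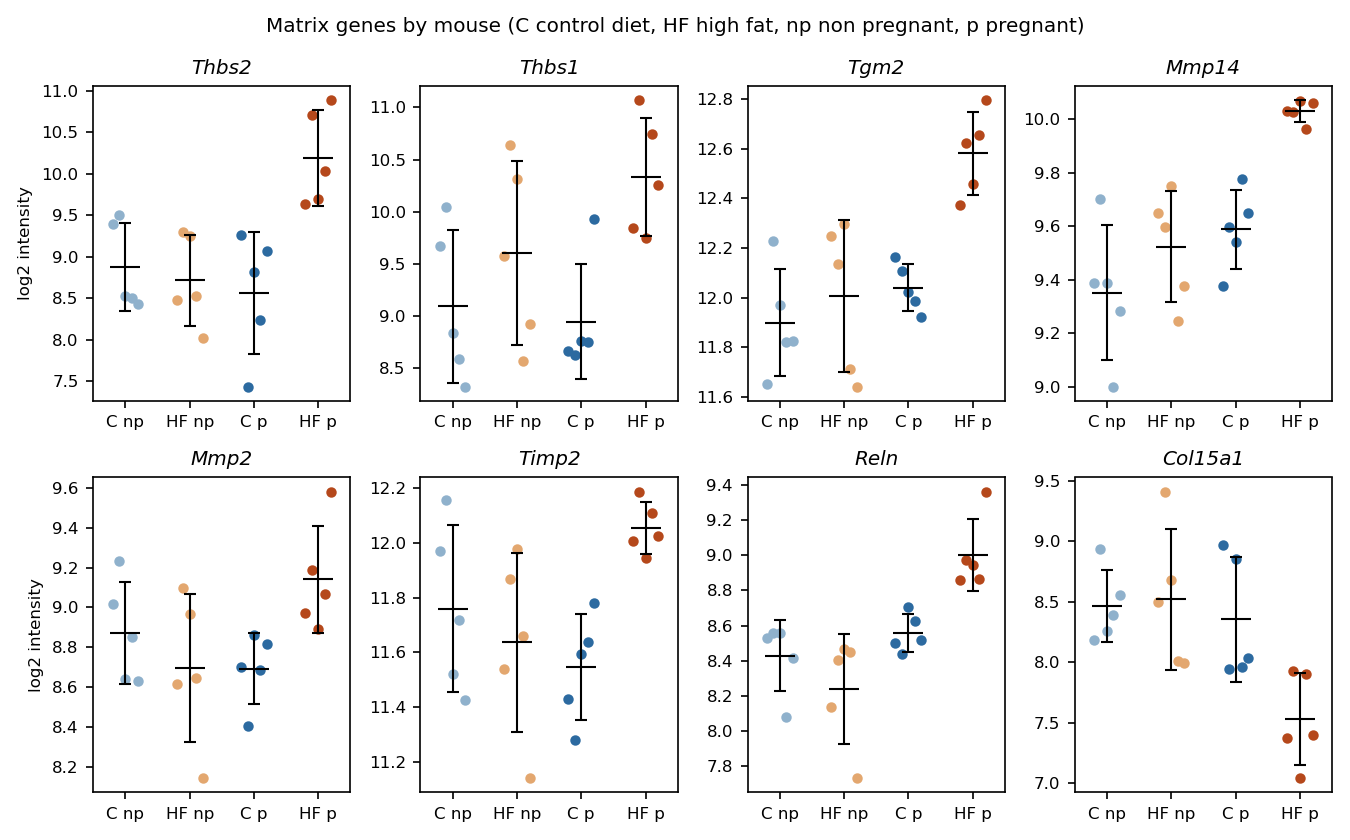
Log2 intensity (y axis) of 8 matrix genes in the 4 groups (x axis), 1 point a mouse, with the group mean and SD (n = 5) in black. HF pregnant mice lie above control pregnant mice for Thbs2, Tgm2, Mmp14, Mmp2, Timp2 and Reln and below them for Col15a1, while Thbs1 overlaps.

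Ccn2, the connective tissue growth factor gene, had its widest differences by pregnancy. It was 823, 1376, 643, 869 and 726 in control non pregnant mice and 507, 392, 579, 538 and 646 in control pregnant mice. It was 646, 1212, 1059, 849 and 530.0 in HF non pregnant mice and 749, 437, 485, 656 and 558 in HF pregnant mice. Pregnant and non pregnant mice overlapped on each diet, on the control diet only through control pregnant replicate 5 and control non pregnant replicate 3. The difference was -0.71 ± 0.23 on the control diet (SE, adjusted p = 0.963 by limma), -0.54 ± 0.23 on the HF diet (adjusted p = 1) and -0.62 ± 0.16 averaged over diet (adjusted p = 0.414), and none passed.

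Sparc, a collagen-binding chaperone of basement membranes, and Postn, which encodes periostin, did not pass in any comparison. Sparc was at -0.30 ± 0.25 for diet in pregnant mice and -0.27 ± 0.25 in non pregnant mice, and Postn at 0.20 ± 0.31 and 0.03 ± 0.31.

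Tgfb1, the cytokine that drives fibroblasts to make matrix, was dim, from 49.8 to 158 over the 20 mice. It was 49.8, 56, 86.5, 70.9 and 93.4 in control non pregnant mice and 132, 77, 99.9, 82 and 158 in HF non pregnant mice. These groups overlapped, and the difference was 0.61 ± 0.24 (SE, adjusted p = 0.281 by limma). The median difference of the B cell markers in the same comparison was 1.46 and that of the T cell markers 1.24, and with their mean as a covariate the difference of Tgfb1 was 0.23. It was 70.3, 126, 73.2, 121 and 74.3 in control pregnant mice and 90, 94.8, 119.7, 119 and 71.6 in HF pregnant mice, where the difference by diet was 0.12 ± 0.24.

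Of the cross-linking enzymes, Tgm2 was the one set apart. It encodes tissue transglutaminase, which joins matrix proteins by bonds that proteases cannot cut. Tgm2 was 5307, 6300.3, 5631, 6457 and 7106 in HF pregnant mice. It was 4582, 4415, 4155, 4056 and 3883 in control pregnant mice, 4867, 4502, 5027, 3359 and 3195 in HF non pregnant mice and 3222, 4795, 4009, 3620.1 and 3627 in control non pregnant mice. All 5 HF pregnant mice were above the other 15.

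Tgm2 was 0.54 ± 0.13 higher in HF pregnant mice than in control pregnant mice (SE, 1.46-fold, adjusted p = 0.109 by limma), and 0.57 ± 0.13 higher than in HF non pregnant mice (adjusted p = 0.293). Averaged over pregnancy status, the difference by diet was 0.32 ± 0.09 (adjusted p = 0.0736). The 4 other probe sets of Tgm2 gave 0.25 to 0.56 against control pregnant mice, and 1 of them passed for diet averaged over pregnancy status, at 0.39 (adjusted p = 0.027 by limma). With the B cell and T cell markers as a covariate the first difference was 0.57, with an adjusted p of 0.0476 by limma. The lysyl oxidase genes Lox and Loxl1, whose products cross-link collagen and elastin, were at -0.16 ± 0.32 and 0.29 ± 0.27 in the same comparison and did not pass in any.

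Both proteases were higher in HF pregnant mice than in control pregnant mice, with no overlap, though neither passed the threshold. Mmp14 encodes the membrane-bound metalloproteinase that clears collagen around adipocytes and activates the product of Mmp2. It was 1047, 1045, 1073, 999 and 1069 in HF pregnant mice, the tightest group of any in the plot of values by mouse. It was 665, 775, 745, 878 and 803 in control pregnant mice, 804, 774, 861, 608 and 664 in HF non pregnant mice and 670.3, 833, 669, 512 and 623 in control non pregnant mice. No mouse outside the HF pregnant group reached 900.

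The limma difference of Mmp14 was 0.44 ± 0.12 against control pregnant mice (SE, 1.36-fold, adjusted p = 0.136) and 0.51 ± 0.12 against HF non pregnant mice (1.42-fold, adjusted p = 0.293). It was 0.17 ± 0.12 for diet in non pregnant mice and 0.24 ± 0.12 for pregnancy on the control diet. Averaged over pregnancy status the difference by diet was 0.31 ± 0.08 (adjusted p = 0.0612), which passed (adjusted p = 0.0481) when the pair of arrays high in pancreatic genes was left out. A further probe set of Mmp14 gave 0.39 and 0.58 in the comparisons with control pregnant and HF non pregnant mice, and -0.01 for diet in non pregnant mice.

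Mmp2, the secreted gelatinase, was 503, 583, 475, 537 and 766 in HF pregnant mice and 416, 339, 466, 411 and 450.4 in control pregnant mice. It was 392, 549, 501, 399.9 and 283 in HF non pregnant mice and 518, 601, 399, 462 and 396 in control non pregnant mice, so both non pregnant groups overlapped the HF pregnant one. Its difference was 0.45 ± 0.17 against control pregnant mice (SE, adjusted p = 0.290 by limma) and 0.45 ± 0.17 against HF non pregnant mice (adjusted p = 0.897).

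The inhibitors Timp2 and Timp3 lay on the same side as the proteases in pregnant mice, and neither passed. Timp2, which restrains metalloproteinases and also helps to activate the product of Mmp2, was 4113, 4658, 3942, 4419 and 4167 in HF pregnant mice and 2762, 2491, 3091, 3189 and 3520.1 in control pregnant mice. It was 2976, 3737, 4036, 3239 and 2259.7 in HF non pregnant mice and 4016, 4568, 2939, 3368 and 2754 in control non pregnant mice. HF pregnant mice were above control pregnant mice without overlap and overlapped both non pregnant groups. The difference was 0.51 ± 0.15 (SE, 1.42-fold, adjusted p = 0.192 by limma), and the interaction of diet with pregnancy was 0.63 ± 0.22 (adjusted p = 0.933).

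Timp3, the inhibitor that stays bound to matrix, was 2971, 3001, 2021, 2724 and 1988 in control non pregnant mice and 1613, 2674, 2443, 2451 and 1408 in HF non pregnant mice. It was 2293, 1376, 2103, 1851 and 2079 in control pregnant mice and 2410.2, 2721, 1895, 2299 and 2254 in HF pregnant mice. The groups overlapped, with differences of -0.28 ± 0.19 for diet in non pregnant mice and -0.39 ± 0.19 for pregnancy on the control diet (SE, adjusted p = 0.331 and 0.963 by limma). Timp1, which was not tested, reached 234 in HF non pregnant replicate 2 and lay between 75.7 and 88.0 in HF pregnant mice.

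Reln encodes reelin, a large secreted glycoprotein best known from the developing brain and also made by lymphatic endothelium. It was 465, 502, 493, 466 and 657 in HF pregnant mice. It was 362, 347, 417, 396 and 367 in control pregnant mice, 281, 338, 354, 349.5 and 213 in HF non pregnant mice and 369, 377, 377, 271 and 342 in control non pregnant mice. Every HF pregnant mouse was above all others. The difference of 0.76 ± 0.14 against HF non pregnant mice (SE, 1.70-fold) had the smallest adjusted p of any matrix gene in that comparison, 0.0668 by limma. It was 0.44 ± 0.14 against control pregnant mice (adjusted p = 0.205) and 0.64 ± 0.19 for the interaction of diet with pregnancy (adjusted p = 0.933). With the B cell and T cell markers as a covariate the first of these was 0.72, with an adjusted p of 0.0187. The 3 kept lymphatic endothelial markers had a median difference of 0.44 by pregnancy on the HF diet. From mouse to mouse within groups, Reln was at r = -0.08 (permutation p = 0.758, adjusted p = 0.802) and rho = -0.04 (permutation p = 0.878, adjusted p = 0.897) with them over the 20 mice, and at r = 0.12 without the 2 farthest mice. By the same test Reln was related to the adipocyte and mesothelial markers (r = 0.61 and 0.59, adjusted p = 0.025 and 0.042). It was inversely related to the B cell, T cell and proliferation markers (r = -0.56, -0.60 and -0.65, adjusted p = 0.031, 0.018 and 0.025). Without the 2 farthest mice these r were 0.36, 0.50, -0.37, -0.47 and -0.39. The part of lymphatic endothelium or of these other markers in the differences of Reln was not tested beyond the covariate given here.

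Thbs2, Mmp14, Reln and Col15a1 were the matrix genes that separated HF pregnant mice from control pregnant and from HF non pregnant mice and have a promoter in the RefSeq table used here, which held no entry for Tgm2. The 250 bases before each start are given 5′ to 3′ on the strand of the gene (RefSeq, GRCm38.p6), since these genes stood apart in the same mice. Capitals mark 3 motifs read on both strands, the TATA box with the letters TATAAA, the GC box with the letters GGGCGG, and the CCAAT box with those letters. In the sequence of Mmp14, a match to the CCAAT box overlaps one to the GC box.
Thbs2, chr17:14694263-14694512, minus strand: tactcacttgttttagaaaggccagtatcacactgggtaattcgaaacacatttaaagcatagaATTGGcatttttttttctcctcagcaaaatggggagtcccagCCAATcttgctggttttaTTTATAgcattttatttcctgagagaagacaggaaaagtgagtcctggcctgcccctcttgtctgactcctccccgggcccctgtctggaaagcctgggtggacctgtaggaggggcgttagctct
Mmp14, chr14:54431348-54431597, plus strand: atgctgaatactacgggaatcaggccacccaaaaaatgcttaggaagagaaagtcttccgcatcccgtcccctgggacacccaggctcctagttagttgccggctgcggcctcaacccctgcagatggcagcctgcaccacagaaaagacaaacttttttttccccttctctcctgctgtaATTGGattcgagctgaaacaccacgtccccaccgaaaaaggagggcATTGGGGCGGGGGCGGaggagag
Reln, chr5:22344706-22344955, minus strand: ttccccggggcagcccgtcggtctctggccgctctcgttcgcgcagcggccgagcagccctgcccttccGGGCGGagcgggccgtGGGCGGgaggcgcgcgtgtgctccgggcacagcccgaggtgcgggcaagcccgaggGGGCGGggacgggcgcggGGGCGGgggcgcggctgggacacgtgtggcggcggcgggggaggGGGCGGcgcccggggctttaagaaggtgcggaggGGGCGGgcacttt
Col15a1, chr4:47207762-47208011, plus strand: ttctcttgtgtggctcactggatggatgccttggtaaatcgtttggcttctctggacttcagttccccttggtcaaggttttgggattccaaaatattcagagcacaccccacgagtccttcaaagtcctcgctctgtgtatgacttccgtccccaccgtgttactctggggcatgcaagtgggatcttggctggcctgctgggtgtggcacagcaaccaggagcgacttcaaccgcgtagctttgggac
The 4 sequences had little in common. That of Thbs2 held the TATA box 1 time, the CCAAT box 2 times and no GC box, and that of Mmp14 held the GC box 2 times and the CCAAT box 2 times. That of Reln held the GC box 6 times and neither of the others, with a G and C content of 80.0% against 46.8% for Thbs2. That of Col15a1 held none of the 3. Over the first 250 bases of all 32851 RefSeq promoter windows, 12.4% held the TATA box letters, 32.7% those of the GC box and 33.8% those of the CCAAT box. A match is a run of letters and was not tested as a binding site. Promoter windows were found for 22 of the 34 matrix genes.

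The matrix genes varied more from mouse to mouse than most genes. The pooled SD within groups had a median of 0.42 (log2) over the 32 matrix genes against 0.22 over all genes tested, and 28 of 32 lay above that median. Thbs1 (0.70) and Thbs2 (0.60) had the widest spread, and Mmp14 (0.18) and Tgm2 (0.21) were among the narrowest. Over the 13 collagens together, control pregnant replicate 2 had the lowest mean log2 deviation, -0.83, followed by HF non pregnant replicate 5 at -0.64, and HF non pregnant replicate 2 the highest, 0.69, followed by control non pregnant replicate 2 at 0.65. These extremes lie in different groups, so they widened the groups and did not separate them.

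Within groups the collagens went up and down together. Over 20 mice, with group means removed, the 78 pairs of collagens had a median Pearson r of 0.86 (range 0.43 to 0.98), and the 496 pairs of all 32 genes a median of 0.68. Col4a1 and Col4a2, whose promoter windows in RefSeq overlap by 78 bases on opposite strands, were related at r = 0.97 and rho = 0.95 (permutation p = 1e-05 for both), with r = 0.94 without the 2 farthest mice. Of 31 relations of Col1a1 to the other matrix genes, 25 passed by a permutation test within groups (two-sided, 100000 resamples, adjusted over the 31), all positive. These 31 genes had a median r of 0.705 with Col1a1, and 25 of 31 had r of at least 0.5, beside 11.5% of all genes tested.

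The closest to Col1a1 was Col3a1, at r = 0.95 (permutation p = 1e-05, adjusted p = 7.75e-05) and rho = 0.91 (permutation p = 1e-05, adjusted p = 7.75e-05), the p being the smallest these permutations can give; without the 2 mice farthest from the median of Col1a1, r was 0.93. Eln followed Col1a1 at r = 0.91 (permutation p = 1e-05, adjusted p = 7.75e-05) and rho = 0.81 (permutation p = 1e-05, adjusted p = 7.75e-05), with r = 0.88 without those mice. The relation of Reln to Col1a1 had r = 0.26 (permutation p = 0.349, adjusted p = 0.349) and rho = 0.14 (permutation p = 0.589, adjusted p = 0.589), and that of Mmp14 had r = 0.46 (permutation p = 0.0668, adjusted p = 0.0739) and rho = 0.29 (permutation p = 0.237, adjusted p = 0.244). Tgfb1 was the single gene with a negative relation, at r = -0.38 (permutation p = 0.135, adjusted p = 0.139) and rho = -0.40 (permutation p = 0.0977, adjusted p = 0.104).

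**Figure D3:**
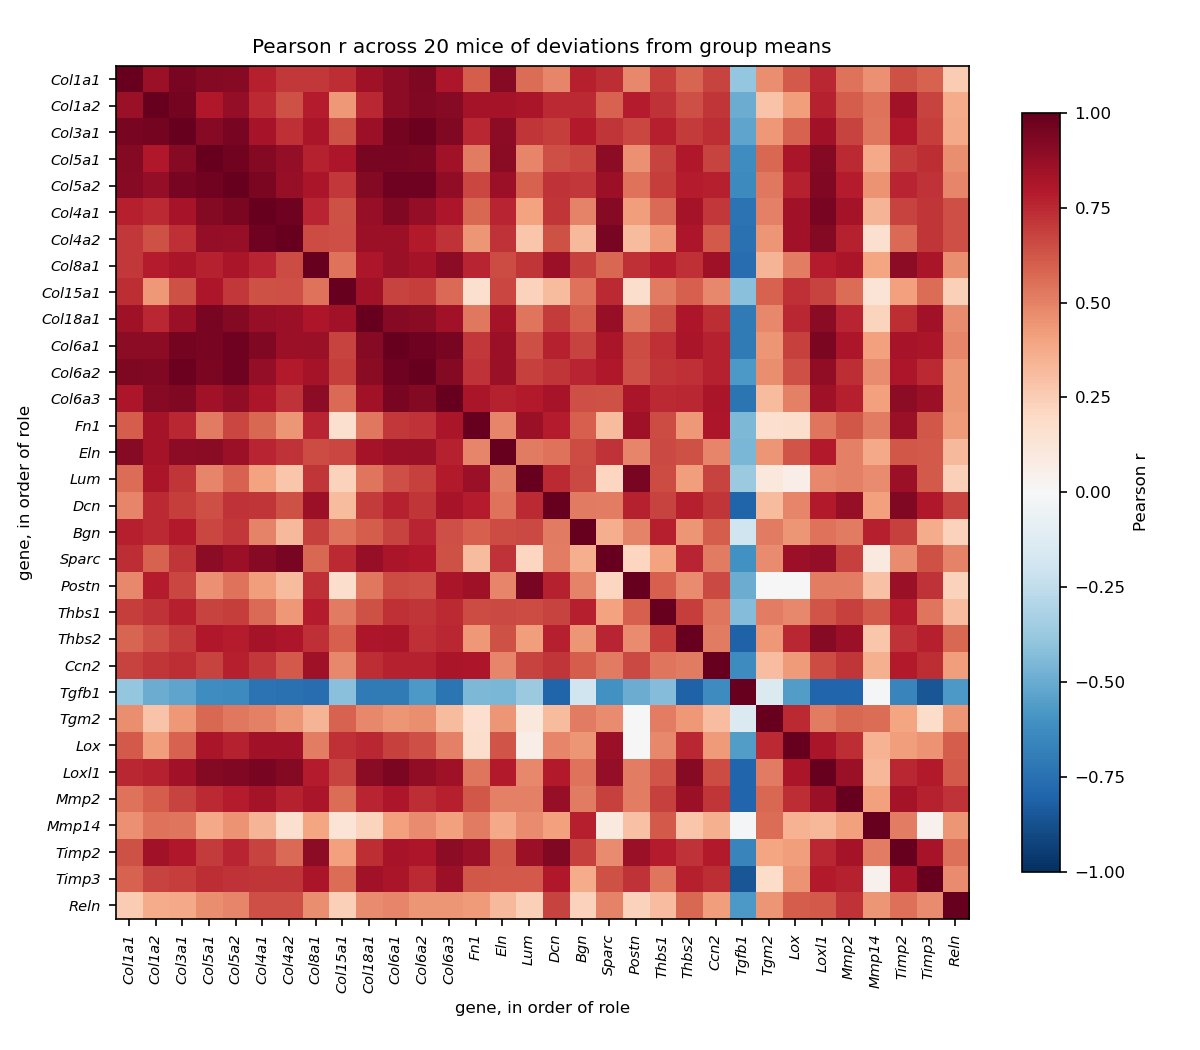
Pearson r between 32 matrix genes (both axes, in order of role) over 20 mice, as deviations of log2 intensity from group means; red is positive and blue negative. The collagens form a red block with a median r of 0.86, Reln and Mmp14 are paler, and Tgfb1 is blue against most genes.

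Markers of cell types varied along with these genes from mouse to mouse, and their part in the differences between groups was not tested beyond the covariates given here. Col1a1 was related to the mean of the 9 fibroblast and adipose progenitor markers, at r = 0.73 (permutation p = 0.000720, adjusted p = 0.00360) and rho = 0.76 (permutation p = 0.000480, adjusted p = 0.00320), and without the 2 farthest mice r was 0.80. Col4a1 was related to the 8 adipocyte markers, at r = 0.83 (permutation p = 6e-05, adjusted p = 0.00120) and rho = 0.78 (permutation p = 0.000410, adjusted p = 0.00320), with r = 0.72 without the 2 farthest mice. It was inversely related to the 7 T cell markers, at r = -0.77 (permutation p = 0.000140, adjusted p = 0.00140) and rho = -0.80 (permutation p = 0.000220, adjusted p = 0.00320), with r = -0.74 without them. Of the 20 relations of these 2 collagens to 10 marker lists, 7 passed by the same test, adjusted over the 20.

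Thbs2 and Tgfb1 stood at opposite ends of this scale of adipocyte and lymphoid markers. Thbs2 was related to the 6 B cell markers at r = -0.85 (permutation p = 2e-05, adjusted p = 0.000360) and rho = -0.86 (permutation p = 1e-05, adjusted p = 0.000150), with r = -0.81 without the 2 farthest mice. Tgfb1 was related to them at r = 0.92 (permutation p = 1e-05, adjusted p = 0.000225) and rho = 0.95 (permutation p = 1e-05, adjusted p = 0.000150), with r = 0.91 without the 2 farthest mice. Timp2 was related to the 8 mesothelial markers at r = 0.90 (permutation p = 1e-05, adjusted p = 0.000225) and rho = 0.92 (permutation p = 1e-05, adjusted p = 0.000150), with r = 0.86 without the 2 farthest mice. Mmp14 was related to the 10 macrophage markers at r = 0.73 (permutation p = 0.00285, adjusted p = 0.0137) and rho = 0.73 (permutation p = 0.00400, adjusted p = 0.0171), with r = 0.75 without the 2 farthest mice. Of 90 such relations of 9 genes to 10 lists, 30 passed, adjusted over the 90. How many of all genes would pass against these lists was not determined, for these 90 or for the 20 relations of the collagens. The counts alone therefore do not set the matrix genes apart. Many genes outside these lists varied along with the same genes. Of all genes tested, 28.3% had r of at least 0.5 with Thbs2, 28.4% with Tgfb1 and 29.9% with Col4a1. These shares count positive relations to a gene and not to a marker list. The 9 genes were chosen after their values were seen, and genes and markers share each array.

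**Figure D4:**
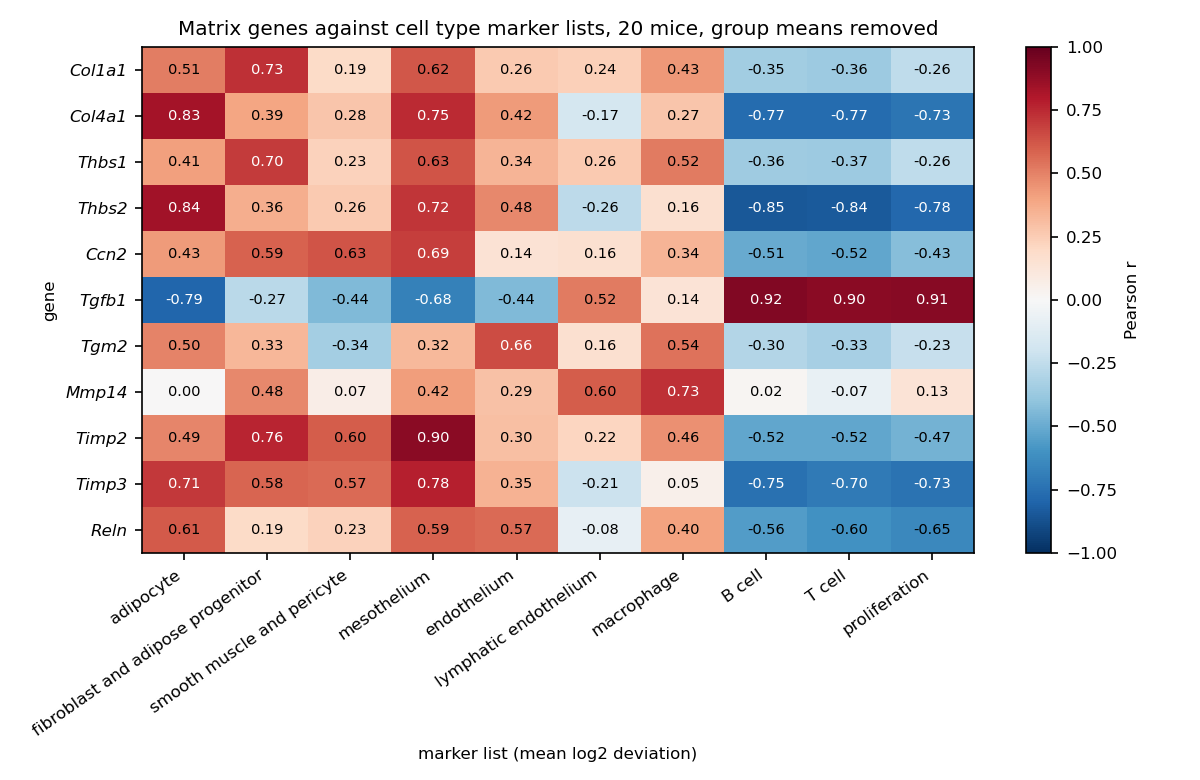
Pearson r (colour and number) between 11 matrix genes (y axis) and 10 marker lists (x axis, mean log2 deviation of each list) over 20 mice with group means removed. Thbs2 and Col4a1 are high with adipocyte markers and low with B cell and T cell markers, and Tgfb1 is the reverse.

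Between groups, 9 of 10 smooth muscle and pericyte markers had a positive difference by diet in pregnant mice, beside 59.1% of all genes. The thrombospondins and proteases were positive too. From mouse to mouse within groups, these markers were at r = 0.26 with Thbs2, 0.23 with Thbs1 and 0.07 with Mmp14. None of these relations passed by the permutation test (adjusted p = 0.416, 0.473 and 0.832). For diet in non pregnant mice these markers had a median of -0.38, beside -0.16 for Thbs2, 0.51 for Thbs1, -0.18 for Mmp2 and 0.17 for Mmp14. For pregnancy on the control diet the median was -0.77, beside -0.31, -0.15, -0.18 and 0.24 for these genes in the same order. The part of smooth muscle and pericytes was not tested beyond the covariate given here. All 10 of these markers were kept and none was called, with a median difference of 0.99 in HF pregnant against control pregnant mice. Their mean log2 deviation ranged from -0.36 to 1.06 in HF pregnant mice and from -1.94 to 0.82 in control pregnant mice. With this mean as a covariate, the difference of Thbs2 between HF pregnant and control pregnant mice was 1.5, that of Tgm2 0.60 and that of Mmp14 0.43 (adjusted p = 0.175, 0.127 and 0.261 by limma). Macrophage markers, 10 of 10 kept, had a median difference of 0.25 in that comparison, and fibroblast and adipose progenitor markers, 9 of 10 kept, 0.19. With the fibroblast and progenitor mean as a covariate, the same differences were 1.4, 0.47 and 0.35 (adjusted p = 0.259, 0.335 and 0.392).

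Other matrix genes, in 7 lists that hold none of the 34, were nearly all short of the threshold as well. The one call by limma was Ccn5, a matricellular relative of Ccn2 that lacks its C-terminal domain, which was lower by diet averaged over pregnancy status, at -1.47 ± 0.34 (SE, adjusted p = 0.0427), 1 of 146 beside 1.34% of all genes. In HF pregnant against control pregnant mice 0 of 146 passed and 20 had an unadjusted p under 0.05, beside 13.5% of all genes, where the list medians ran from 0.09 for laminins and basement membrane genes to 0.23 for TGF-beta signalling. The mean log2 deviation of the 19 TGF-beta signalling genes lay between 0.05 and 0.13 in HF pregnant mice and between -0.21 and -0.03 in control pregnant mice, without overlap, while the groups overlapped for each of the other 6 lists. It ran from -0.10 to 0.11 in control non pregnant and from -0.14 to 0.10 in HF non pregnant mice, so both overlapped the HF pregnant group. The means of the lists were not tested, and how often the mean of such a list separates 2 groups of 5 was not determined. In HF pregnant against control pregnant mice 59.1% of all genes were positive. In HF pregnant against control pregnant mice Tgfbr3, a TGF-beta co-receptor, was at 0.40 ± 0.11 (SE, adjusted p = 0.15), and Inhbb, which encodes an activin subunit, at -1.01 ± 0.30 (adjusted p = 0.192). Of the other collagens, Col5a3, a chain of type V collagen, was at -1.03 ± 0.38 (SE, adjusted p = 0.281) and Col16a1 at 0.29 ± 0.14. Of the glycoproteins, Prelp, a collagen-binding proteoglycan, was at 1.05 ± 0.38 (adjusted p = 0.266). The lysyl oxidase relative Loxl3 was at 0.27 ± 0.09 and P4ha1, which hydroxylates collagen prolines, at 0.30 ± 0.13. The lysosomal protease gene Ctsb was at -0.34 ± 0.11 and Adamts9, a secreted proteoglycanase, at -0.69 ± 0.23. Ntn4 and Nid2, of basement membranes, were at 0.28 ± 0.15 and -0.51 ± 0.28, and the receptors Sdc4 and Ddr2 at 0.44 ± 0.16 and 0.52 ± 0.25. Among the proteases of these lists, Adam12 was at 1.19 ± 0.28 in control pregnant against control non pregnant mice (adjusted p = 0.963). Of the 15 laminin and basement membrane genes, 1 was positive for diet in non pregnant mice (median -0.26), beside 48.4% of all genes. For pregnancy on the control diet 0 were positive (median -0.14), beside 49.5%. By limma 0 of 15 had an unadjusted p under 0.05 in both. Both comparisons share the control non pregnant mice, so they are not independent of each other. The smooth muscle markers (median -0.38 and -0.77, 0 of 10 positive in both) and the mesothelial markers (median -0.36 and -0.17) were lower in the same comparisons, and their part was not tested.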

How the data were processed

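Total RNA of visceral fat of 20 mice was hybridised to Affymetrix Mouse Genome 430 2.0 arrays, 1 mouse to an array. The deposited values are intensities on a linear scale, which the authors made from the scans by RMA (background correction, quantile normalization and summary of each probe set over all arrays) with the affy package in R 2.8.0. The labels name Trizol for extraction and the methods a column kit, and no scan date was used.

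Intensities were turned to log2 without further normalization. The 64 control probe sets were left out, and 19802 probe sets (44.0%) above 100 on at least 5 of 20 arrays were kept. Of all probe sets, 34945 carried 1 gene symbol, 932 several and 9160 none. limma 3.58.1 in R 4.3.3 fitted 4 group means and 7 comparisons, with Benjamini-Hochberg adjustment over all kept probe sets and a threshold of 0.05. The methods name limma and rank products, and rank products were not run. The fit and the permutation tests (numpy 2.4.6, scipy 1.17.1) were tested on simulated data.

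The members, the gene and marker lists and the tests were chosen with earlier results of these data known. By rule, values of every mouse were given for the 3 matrix genes of smallest p in each comparison, the highest and lowest of a role were named by level, and other lists by up to 4 calls or the 2 genes of smallest p. Col1a1, Col15a1, Mmp2 and Adam12 fell outside this rule and were chosen after their values were seen. Replicate numbers were not shown to pair mice. Arrays give no counts, so their number limits the precision. The limma p-values weigh a difference against the spread between mice within groups, pooled over the 4 groups. Alternatives covered the filter, moderation, array weights, normalization, probe set, call rule, replicate block, marker covariates and each array left out. The smooth muscle and fibroblast covariates, and the 9 genes set against marker lists, were chosen after seeing the data.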

Additional observations from a re-analysis of the deposited data

Results flagged for a closer look

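Of 132 groups of 5 mice, 12 held a mouse whose gap to the nearest of the other 4 was over 0.71 of the range of its group. Chance gives such a gap in about 1 in 20 groups, and the genes of an array are not independent of each other. Values are log2 intensities.

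Control pregnant replicate 2 was the lowest of its group for 5 collagens. Col1a1 was 8.06 against 9.20 to 9.31 (ratio 0.912) and Col3a1 12.53 against 13.32 to 13.60 (ratio 0.734). Col5a2 was 9.84 against 10.90 to 11.30 (ratio 0.726). Col6a1 was 9.53 against 10.49 to 10.65 (ratio 0.861) and Col6a2 9.47 against 10.52 to 10.65 (ratio 0.891). This is 1 of the 2 arrays high in pancreatic genes, and the mean log2 deviation of its B cell markers was 1.55, the highest of its group. The part of either in these values was not tested.

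HF pregnant replicate 3 was the lowest of its group for Col5a2, at 10.36 against 10.87 to 11.06 (ratio 0.732), and for Col6a1, at 9.97 against 10.47 to 10.62 (ratio 0.775). HF pregnant replicate 5 was the lowest for Lum, at 10.84 against 11.54 to 11.65 (ratio 0.861), and the highest for Reln, at 9.36 against 8.86 to 8.97 (ratio 0.779). Control non pregnant replicate 2 was the highest for Col18a1, at 9.43 against 8.66 to 8.78 (ratio 0.847), and for Bgn, at 11.75 against 10.97 to 11.17 (ratio 0.739). Control pregnant replicate 5 was the highest for Thbs1, at 9.93 against 8.63 to 8.76 (ratio 0.899).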

How the results depend on the processing

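The 725 values of 21 pairs of a named matrix gene and a comparison kept their direction in every alternative run, and 36 of them passed the threshold. Weighting arrays by quality gave 2 calls (Thbs2 and Tgm2) in HF against control pregnant mice, 9 in HF against control non pregnant mice, 8 in HF pregnant against HF non pregnant mice, 9 for diet and 4 for pregnancy averaged, with medians of 0.32 for diet in non pregnant mice and -0.34 for the difference in response. With the B cell and T cell markers as a covariate the calls were 3 (Thbs2, Tgm2 and Mmp2), 2 for pregnancy on the HF diet (Thbs2 and Reln), 1 for diet (Thbs2) and 1 for pregnancy (Reln) averaged. An unadjusted p under 0.05 with a fold of at least 1.5 gave 3, 1, 3 and 1 in the comparisons of groups, 5 for the difference in response, and 2 and 1 for diet and pregnancy averaged. Diet averaged gave 1 call each with quantile normalization repeated (Tgm2) and without the 2 arrays high in pancreatic genes (Mmp14). With the fibroblast covariate the median of the difference in response was -0.19. The cause was not tested.

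Leaving out each array in turn gave 0 to 1 calls for pregnancy on the HF diet, the 1 being Reln without control non pregnant replicate 4. It gave 0 to 4 for diet averaged: 4 without control pregnant replicate 2, 3 without HF non pregnant replicate 4, 2 without control non pregnant replicate 2 and 1 without control pregnant replicate 4. The other 5 comparisons had 0. Deviations of same-numbered mice had a median correlation of -0.17 over 30 pairs of mice from different groups (range -0.76 to 0.71). This did not show that the numbers pair mice, and with so wide a range it cannot exclude it. With the replicate block 0 matrix genes were called, and 17 probe sets in HF against control pregnant mice where 38 were called without it. For diet averaged, 246 probe sets were called, 19 with the block, 9136 with array weights and 2011 without the 2 arrays. Of 31 relations to Col1a1, 25 passed, 18 without the 2 arrays and 26 with arrays centred.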

Other observations

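Decorin gave different sizes by probe set. The brightest probe set of Dcn differed by 0.23 between HF pregnant and control pregnant mice. Between the pregnant and non pregnant mice of the HF diet it differed by 0.18. The second probe set of Dcn differed by 0.81 and 0.84, and neither passed (adjusted p = 0.192 and 0.543 by limma). It was far dimmer, at a mean log2 of 7.07 against 13.84, and was above 100 on 17 of 20 arrays. Over the matrix genes with several kept probe sets, 28 of 32 further probe sets had the sign of the brightest in HF pregnant against control pregnant mice. Signs differed more widely in other comparisons. For diet in non pregnant mice they differed for further probe sets of at least Col3a1, Col5a2, Col6a2, Fn1, Thbs2 and Mmp14.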
